A study of Rattus norvegicus with 3 samples.

Results

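The genes described here handle calcium and magnesium in the kidney tubule. They are the calcium-sensing receptor Casr, the channels Trpm6, Trpm7 and Trpv5, the cytosolic buffer Calb1, the sodium-calcium exchanger Slc8a1, the plasma membrane calcium pumps Atp2b1, Atp2b2 and Atp2b4, and the calcium pump of the endoplasmic reticulum Atp2a2. Every probe set to which the platform annotation gives one of these 10 symbols and no other was taken. This gave 19 probe sets for 9 genes, out of 20826 probe sets for 14217 genes with 1 symbol each. No probe set carried the symbol of Trpm6, and its transcript was not analysed here. The tissue was the medullary thick ascending limb (mTAL), the tubule segment of the outer medulla that reabsorbs salt without water. The donors were male Sprague-Dawley rats, 7 to 8 weeks old, which had received 250 u heparin and 1 mg of the loop diuretic furosemide 30 minutes before they were killed, so all samples carry this treatment and no untreated tissue was profiled. The tubules were freed with collagenase (1 mg/ml) and hyaluronidase (0.5 mg/ml) and separated in 33.3% Percoll. There were 3 arrays, 1 per sample, all of this 1 group. Whether each sample is of 1 rat or of pooled animals is not in the labels, so the p-values rest on a spread between samples that may be technical only.

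In the thick ascending limb, calcium and magnesium leave the urine mainly between the cells, through pores formed by claudins, driven by the voltage that salt transport sets up across the epithelium. Casr, on the blood side of the cells, senses calcium in the plasma and restrains this route. Further along, in the distal convoluted and connecting tubule, calcium instead crosses the cells: it enters through Trpv5, is carried by Calb1 and leaves through Slc8a1 and the plasma membrane pumps, while magnesium enters through Trpm6. The pumps of the Atp2b family, like Atp2a2, are P-type ATPases, which move ions at the cost of ATP.

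The values are signals on a linear scale that the authors deposited, 1 per probe set and array. A probe set counted as detected if its signal exceeded a cutoff set on each array, the 95th percentile of 92 genes known from other tissues (404, 377 and 384 on replicates 1, 2 and 3). The log2 distance from the cutoff was tested with limma, one-sided, with Benjamini-Hochberg adjusted p-values under 0.05 over all 20826 probe sets. Hybridisation strength varies from probe set to probe set, so a higher signal of one gene than of another does not mean more transcript. The tissue label was checked on 13 markers of the thick ascending limb, among them the cotransporter Slc12a1 (39427 ± 2562) and Umod (57036 ± 8031, SD, n = 3), and all 13 were detected. Over all genes the share detected was 53.5%. Markers of other cells were also called: 9 of 11 endothelial, 4 of 6 thin limb and 5 of 11 principal cell markers. Fewer were called for the proximal tubule (2 of 23), stroma (2 of 14), leukocytes (2 of 14) and intercalated cells (0 of 7). The proximal tubule count does not mean a low signal on every array. Of the 23, 2, 11 and 16 lay above the cutoff on replicates 1, 2 and 3. Each array is a bulk sample, in which fewer cells of a type and less RNA per cell cannot be told apart. From which cells the signal of a detected member came was not tested.

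Casr, Trpm7, Atp2b1 and Atp2a2 were detected, and Trpv5, Calb1, Slc8a1, Atp2b2 and Atp2b4 were not. By probe set, 8 of 19 (42.1%) were detected, against 44.8% of all probe sets. By gene, with the probe set of highest signal standing for each gene, it was 4 of 9 (44.4%), against 53.5% of all genes. The share of members detected was thus near that of genes at large. The median log2 distance from the cutoff was -0.75 over the 19 member probe sets, against 0.13 over all probe sets. Of the 19, 9 lay above the cutoff on all 3 arrays, 10 lay below it on all 3, and 0 crossed it. Over all probe sets, 47.6% lay above on all arrays and 44.1% below on all. The counts turned on where the cutoff lay. Taken as the 99th percentile, it left 2 of 19 called (8.12% of all probe sets), Casr and 1 probe set of Atp2a2, and at the highest signal of the control transcript TrpnX 14 of 19 (74.2% of all probe sets).

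**Figure D1:**
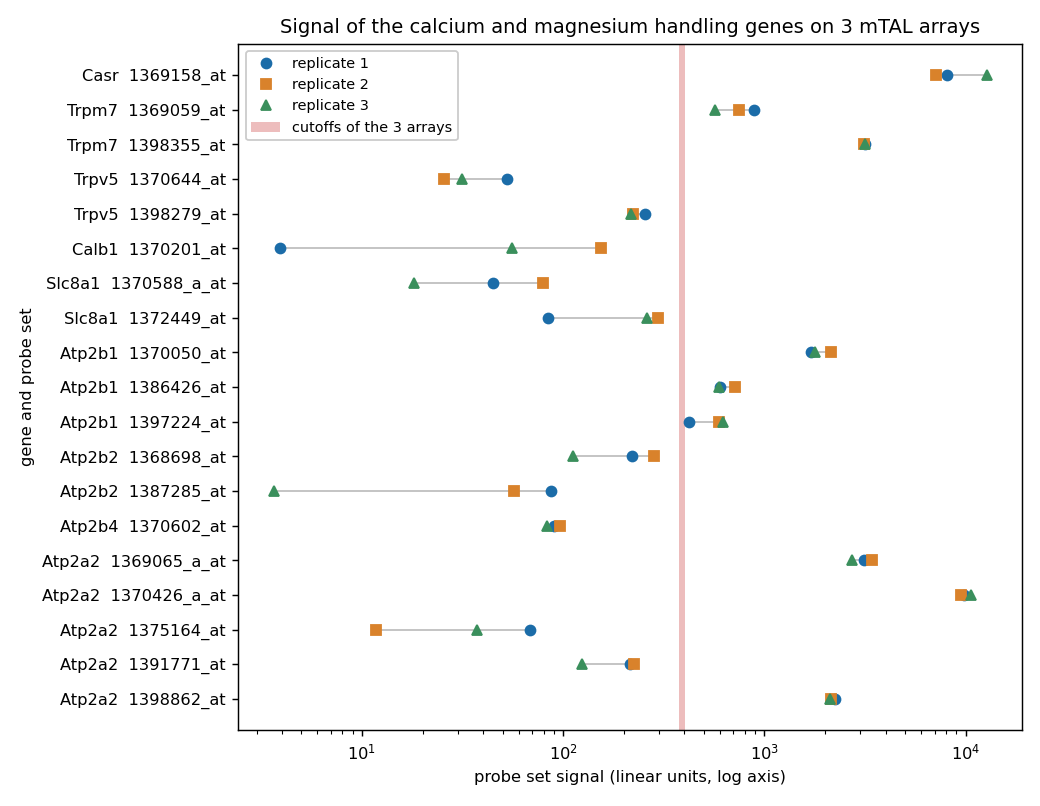
Signal of the 19 member probe sets (rows, in the order sensor, entry, buffer, exit and store) on replicates 1, 2 and 3, on a log axis; grey lines join the lowest and highest array, and the red band spans the cutoffs of the 3 arrays (377 to 404). Casr, 3 Atp2a2 probe sets, 1398355_at of Trpm7 and 1370050_at of Atp2b1 lie far to the right of the band. Trpv5, Calb1, Slc8a1, Atp2b2, Atp2b4 and the other Atp2a2 probe sets lie to its left on every array.

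The 300 bases around the start of transcription (250 before and 50 after it) differed between the members in their number of CpG dinucleotides, a feature that the choice of members did not use. They are shown because the genes with most CpG include those detected, with an exception. The display was thus picked with the calls known and cannot show a link. CpG was not set against detection over all genes. RefSeq windows on the rat assembly GRCr8 were found for Casr, Trpm7, Trpv5, Slc8a1, Atp2b1, Atp2b2, Atp2b4 and Atp2a2, and for Trpm6. The detected genes had 18 (Casr), 38 (Trpm7), 42 (Atp2b1) and 52 (Atp2a2) CpG dinucleotides in the window. Those not detected had 1 (Trpv5), 6 (Slc8a1), 6 (Atp2b4) and 28 (Atp2b2), so that Atp2b2 exceeded Casr and the groups overlap. For Calb1, also not detected, no window was found, so it is missing from this comparison. The median over 27457 genes was 7. A gene can have other start sites than the 1 shown. The windows of Casr, of Atp2a2 with the most CpG, of Trpv5 with the fewest and of the exception Atp2b2 are given 5′ to 3′ on the strand of the gene, with each CpG in capitals.
Casr, chr11:77740364-77740663, plus strand: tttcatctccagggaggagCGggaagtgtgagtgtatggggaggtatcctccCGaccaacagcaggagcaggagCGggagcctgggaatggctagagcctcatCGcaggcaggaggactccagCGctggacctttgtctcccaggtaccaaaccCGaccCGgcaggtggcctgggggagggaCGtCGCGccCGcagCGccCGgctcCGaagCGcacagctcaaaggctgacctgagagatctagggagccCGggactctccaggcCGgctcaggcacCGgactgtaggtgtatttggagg
Atp2a2, chr12:39733269-39733568, plus strand: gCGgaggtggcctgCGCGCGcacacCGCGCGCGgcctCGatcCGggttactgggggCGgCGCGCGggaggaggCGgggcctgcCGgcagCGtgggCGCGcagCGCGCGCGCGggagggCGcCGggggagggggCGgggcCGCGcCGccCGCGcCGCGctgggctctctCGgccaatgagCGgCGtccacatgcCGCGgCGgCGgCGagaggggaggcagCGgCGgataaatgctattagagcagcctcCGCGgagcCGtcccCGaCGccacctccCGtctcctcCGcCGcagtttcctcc
Trpv5, chr4:71529333-71529632, minus strand: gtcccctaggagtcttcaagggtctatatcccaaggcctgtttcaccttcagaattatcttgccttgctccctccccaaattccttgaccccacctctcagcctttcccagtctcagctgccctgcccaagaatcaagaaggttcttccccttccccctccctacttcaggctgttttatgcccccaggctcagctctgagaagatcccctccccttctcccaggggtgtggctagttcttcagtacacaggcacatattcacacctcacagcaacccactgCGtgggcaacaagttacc
Atp2b2, chr4:148763604-148763903, minus strand: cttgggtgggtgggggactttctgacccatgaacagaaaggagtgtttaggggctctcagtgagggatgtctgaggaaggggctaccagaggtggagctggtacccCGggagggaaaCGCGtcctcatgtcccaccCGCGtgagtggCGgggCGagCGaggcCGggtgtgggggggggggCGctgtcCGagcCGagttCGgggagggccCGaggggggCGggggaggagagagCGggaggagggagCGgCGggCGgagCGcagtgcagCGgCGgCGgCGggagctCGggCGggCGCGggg
The window of Atp2a2 held more CpG than 99.5% of the 27457 windows, that of Casr more than 70.2%, that of Trpv5 more than 5.2% and that of Atp2b2 more than 86.4%. The GC box GGGCGG, searched on both strands, was present 3 times in the windows of Atp2a2, Atp2b1 and Atp2b2 and 1 time in that of Trpm7. It was not found in those of Casr, Trpv5, Slc8a1 and Atp2b4, and 34.9% of all windows held it. A TATAAA box, held by 14.3% of all windows, was found in none of these 8. CCAAT, held by 37.7%, occurred 2 times in the window of Slc8a1 and 1 time in those of Atp2b4 and Atp2a2. The hexamer AGGTCA, a core that nuclear receptors bind, occurred 1 time in the Casr window and in 15.7% of all windows. These are matches of letters and were set against no measurement of binding.

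Casr, the sensor, had signals of 8059, 7129 and 12735 on replicates 1, 2 and 3. All arrays lay far above the cutoff, and replicate 3 was the highest. The mean was 9308 ± 3004 (SD, n = 3), which is 4.54 ± 0.22 (SE) log2 units or 23.2-fold above the cutoff (limma adjusted p = 0.000301). Its SD of 0.44 on the log2 scale was the largest of the detected members. Of the 10734 probe sets whose mean log2 signal exceeded the mean cutoff, 9.57% had a larger SD, and their median SD was 0.17.

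Trpm7, a channel for magnesium and other cations with a kinase domain, is expressed in most cells. It was measured by a pair of probe sets, both detected. Probe set 1398355_at had signals of 3173, 3113 and 3156 on replicates 1, 2 and 3, a spread of 0.01 log2 units, the smallest of all members, and lay 3.02 ± 0.10 (SE) above the cutoff (adjusted p = 0.000179). Probe set 1369059_at had signals of 883, 745 and 568, so that the arrays lay in another order and closer to the cutoff. Its distance was 0.89 ± 0.16 (adjusted p = 0.0107), and without replicate 2 it was not called (adjusted p = 0.0608).

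Trpv5, the calcium entry channel of the distal nephron, was not detected by either of its probe sets. Probe set 1398279_at had signals of 254, 223 and 216 on replicates 1, 2 and 3, and 1370644_at had 52.4, 25.5 and 31.3. Every one of these lay below the cutoff of its array, with mean log2 distances of -0.75 and -3.48 (adjusted p = 1 for both). Calb1, calbindin-D28K, which carries calcium through the cytosol of the same cells, had signals of 3.89, 154 and 55.5. These were all below the cutoff and spread widely, with an SD of 2.74 log2 units, the largest of all members. A spread of this size was measured on dim signals, where the median SD over all probe sets was 0.62.

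Slc8a1, the exchanger NCX1 that removes calcium across the basolateral membrane in exchange for sodium, was also not detected. Probe set 1372449_at gave 83.6, 295 and 262 on replicates 1, 2 and 3, and 1370588_a_at gave 44.6, 79.3 and 18.1. Replicate 2 was highest in both, but replicate 1 was the lowest in one and replicate 3 in the other. The distances from the cutoff were -1.06 ± 0.48 and -3.28 ± 0.49 (SE, adjusted p = 1 for both).

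The detection calls of the plasma membrane calcium pumps differed by isoform, each isoform being read by its own probe sets. Atp2b1, the isoform found in most cells, was called by 2 of its 3 probe sets. Probe set 1370050_at had signals of 1711, 2145 and 1774 on replicates 1, 2 and 3 and lay 2.27 ± 0.14 (SE) log2 units above the cutoff (adjusted p = 0.000513). Probe set 1386426_at had signals of 599, 713 and 592, again highest on replicate 2, at a distance of 0.70 ± 0.13 (adjusted p = 0.0111). Probe set 1397224_at had signals of 420, 593 and 623. It lay above the cutoff on all arrays, by 0.06 on replicate 1, and missed the threshold (0.47 ± 0.19, adjusted p = 0.0843). It was called under 5 alternative settings, for instance with adjusted p = 0.0389 when Myh1 was left out of the cutoff genes, and under no setting that left out a replicate (adjusted p from 0.0508 to 0.269).

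Atp2b2, a pump best known from neurons and hair cells, had signals of 219, 284 and 112 on replicates 1, 2 and 3 by 1368698_at, and of 86.6, 57.1 and 3.66 by 1387285_at. All were below the cutoff, and replicate 3 was the lowest in both. Atp2b4 had signals of 90.2, 96.7 and 83.2, which agree within an SD of 0.11 log2 units and lie at a distance of -2.11 ± 0.12 (SE) from the cutoff. Its adjusted p was 1, as were those of both Atp2b2 probe sets. The related pump Atp2b3 is not a member and has 3 probe sets. By the highest of them it had signals of 927, 1107 and 905 and was detected (adjusted p = 0.0012 over genes), but not when the median of its probe sets was used (adjusted p = 1).

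Atp2a2, the SERCA2 pump that refills the calcium store of the endoplasmic reticulum, was called by 3 of 5 probe sets. Probe set 1370426_a_at had signals of 9785, 9460 and 10580 on replicates 1, 2 and 3, 4.68 ± 0.11 (SE) log2 units above the cutoff (adjusted p = 0.000162), the largest distance of any member probe set. Probe set 1369065_a_at had signals of 3142, 3429 and 2728, and 1398862_at had 2240, 2144 and 2128, with distances of 2.99 ± 0.13 and 2.48 ± 0.10 (adjusted p = 0.000241 and 0.000222). The others disagreed with these. Probe set 1391771_at had signals of 214, 225 and 124, and 1375164_at had 68.7, 11.7 and 37.1, below the cutoff on every array. Atp2a2 is known to give rise to several transcripts that differ at their 3′ end, and which transcripts each probe set sees is not stated in the files.

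The 9 member probe sets above the cutoff on all arrays had SDs from 0.01 to 0.44 log2 units with a median of 0.17, beside the median of 0.17 over all probe sets whose mean exceeded it. The 10 below it on all arrays had SDs from 0.11 to 2.74 with a median of 0.85. The SD did not go by level alone, since Casr had the largest SD of the 9, and Atp2b4 and 1398279_at of Trpv5, both below the cutoff, had SDs of 0.11 and 0.12. On replicate 3, 3 of the 8 detected probe sets were higher than the mean of the other arrays, and 4 were on each of replicates 1 and 2. Casr deviated by 0.75 log2 units on replicate 3, beyond the middle 95% of all probe sets above the cutoff on that array (-0.77 to 0.72). The other detected members stayed within the corresponding range of each array, as did Casr on replicates 1 and 2.

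**Figure D2:**
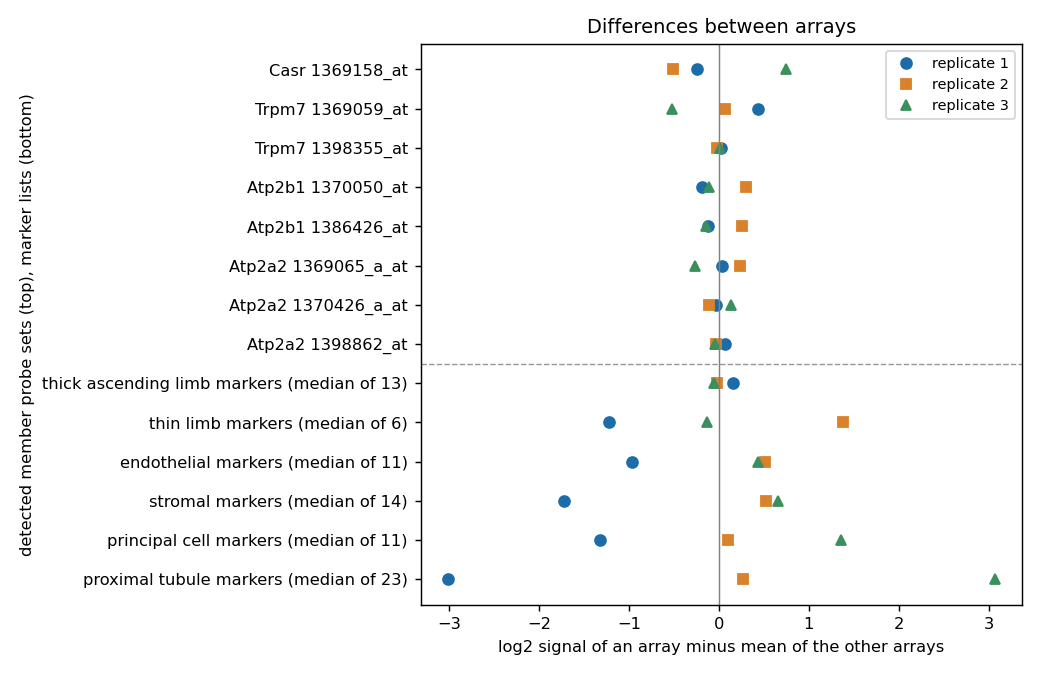
Log2 signal of each array minus the mean of the other arrays, for the 8 detected member probe sets (top) and as the median of 6 marker lists (bottom), with replicates 1, 2 and 3 marked by shape and colour. Casr stands at 0.75 on replicate 3, while proximal tubule markers run from -3.01 on replicate 1 to 3.07 on replicate 3 and thick ascending limb markers stay between -0.05 and 0.16.

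Markers of other cells moved between the same arrays. The summed signal of 23 proximal tubule markers was 7365, 26258 and 83306 on replicates 1, 2 and 3, with 2, 11 and 16 genes above the cutoff and with all 23 higher on replicate 3 than on the other arrays' mean. That of 11 principal cell markers was 12203, 17348 and 27200, with 5, 8 and 9 above the cutoff. On replicate 2, all 6 thin limb and all 11 endothelial markers were higher than on the other arrays' mean, with summed signals of 27373, 73285 and 41467 and of 16629, 28555 and 26024. The 13 thick ascending limb markers, of which Casr is not one here, summed to 263806, 257477 and 235408. Of the 32 detected pathway genes named below, 12 were, like Casr, highest on replicate 3, against 8 on replicate 1 and 12 on replicate 2. The 12 include the parathyroid hormone receptor Pth1r (1549, 1684 and 3194) and the claudin Cldn4 (4397, 5573 and 13237), and also the thick ascending limb claudin Cldn16 (5901, 5706 and 7705). For Actb, the 3′ control probe set exceeded the 5′ one by 1.48, 1.18 and 1.95 log2 units on replicates 1, 2 and 3, a measure that rises with RNA degradation. For Gapdh the same measure was 0.51, 0.43 and 0.6, in the same order of arrays but closer together. The part of these differences in the Casr signals was not tested, since each array is a single preparation.

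Trpv5, Calb1 and Slc8a1 are best known from the distal convoluted and connecting tubule. Of 7 other markers of these segments 0 were detected, with 0, 0 and 1 above the cutoff on replicates 1, 2 and 3. Their summed signal was 832, 966 and 1180 on these arrays. The thiazide-sensitive cotransporter Slc12a3, which defines the distal convoluted tubule, had signals of 223, 324 and 382, below the cutoff on every array and on replicate 3 just under it. The 7 include S100g (calbindin-D9k, 97.6 ± 54.2), the channel Trpv6 (80.7 ± 50.3) and parvalbumin, Pvalb (10.1 ± 4.18, SD, n = 3), which bind or carry calcium in these cells. Trpv5, Calb1, Slc8a1, S100g, Trpv6 and Pvalb all remained undetected when any 1 replicate was left out. They did not all remain so at the lower cutoff of TrpnX, where 78.3% of all genes were called. There 1398279_at of Trpv5 (limma adjusted p = 7.42e-05), 1372449_at of Slc8a1 (0.00049) and S100g (0.0479) were called, and Calb1, Trpv6 and Pvalb were not. A gene not detected may still be expressed below what the cutoff can show.

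Genes around the members were described by 7 lists, which hold 112 measured genes, and 67 of them were detected. The share of all genes detected was 53.5%, and the median distance of all genes from the cutoff was 0.77 log2 units. Lists were chosen with earlier results of these data known, so their counts are descriptions.

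**Figure D3:**
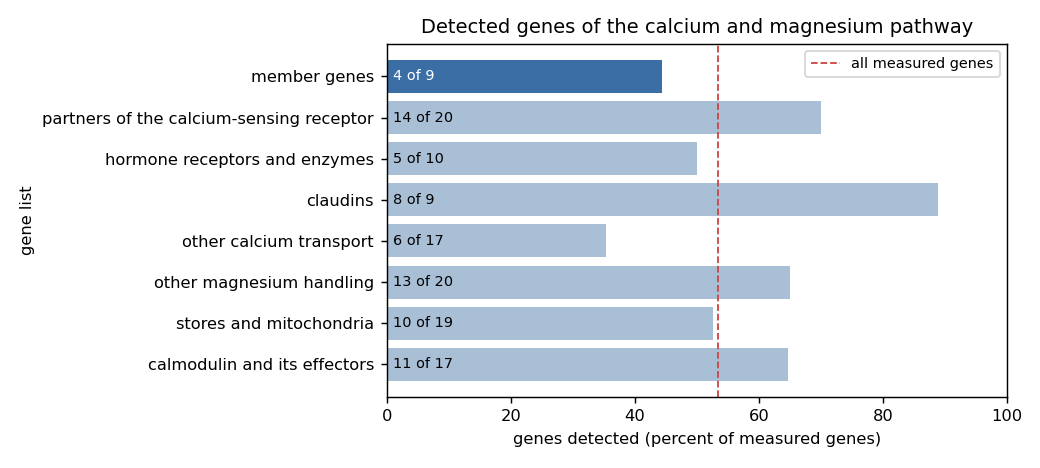
Genes detected in percent of the measured genes, for the 9 member genes (top bar) and for 7 lists of related genes, with the counts inside the bars; the dashed line is the share over all 14217 genes (53.5%). Claudins (8 of 9) and partners of the calcium-sensing receptor (14 of 20) lie to the right of the line, and other calcium transport genes (6 of 17) and the members (4 of 9) to its left.

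Of 9 claudins listed for the paracellular route 8 were detected, and the median distance of the 9 was 4.04 log2 units. The list was not limited to claudins of the thick ascending limb. From which cells each signal came was not tested. Cldn16 (6437 ± 1102) and Cldn19 (9940 ± 777), whose loss causes urinary wasting of magnesium and calcium in humans, had adjusted p-values of 0.000119 and 8.64e-05. Cldn10, which has isoforms that differ in the ions they pass (36920 ± 1939, from a probe set not assigned to an isoform), was detected, as were Cldn8 (13550 ± 138) and Cldn4 (7736 ± 4801, SD, n = 3). Cldn14, known in mice as a target that Casr raises to close the route, had signals of 299, 473 and 581 on replicates 1, 2 and 3. It was below the cutoff on replicate 1 and above it on replicates 2 and 3, at a distance of 0.16 (adjusted p = 0.488). It was called at the lower cutoff of the 90th percentile (adjusted p = 0.0109). The claudin of lowest signal among those detected was Cldn12 (1220 ± 265). Of these 9 genes, Cldn10, Cldn16 and Cldn19 also stand among the thick ascending limb markers.

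Partners of Casr in the cell were detected for 14 of 20 genes, with a median distance of 1.16 log2 units. Leading signals were those of Itpr1, the receptor through which inositol trisphosphate releases stored calcium (5583 ± 523), the adenylyl cyclase Adcy6 (4292 ± 372), which calcium inhibits, Ap2s1, an adaptor subunit for endocytosis (4151 ± 216), and the G protein subunit Gna12 (3836 ± 244, SD, n = 3). Variants of GNA11 and AP2S1, like those of CASR, cause inherited high blood calcium with low urinary calcium in humans. Gna11 had signals of 670, 530 and 419 on replicates 1, 2 and 3, above the cutoff on each, and its adjusted p of 0.0557 missed the threshold. It passed under 8 alternative settings, for instance with adjusted p = 0.029 without Myh1 among the cutoff genes. Gnaq, another G protein subunit of the list, was not detected either (mean signal 446). It is named here after its values were seen. The lowest signals were those of Rgs4 (116 ± 36.6) and Plcb2 (41.6 ± 39.9), neither of them detected.

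Of 10 genes for receptors and enzymes of hormones that control calcium, 5 were detected, at a median distance of 0.43. The thyroid hormone receptor Thrb (6558 ± 1247), the fibroblast growth factor receptor Fgfr1 (2246 ± 224), Pth1r (2142 ± 914) and the epidermal growth factor receptor Egfr (750 ± 53.5, SD, n = 3) were the highest. Egfr was called by the highest of its 3 probe sets and not by their median (adjusted p = 1). The calcitonin receptor Calcr, which raises cyclic AMP in the thick ascending limb, had signals of 625, 439 and 436 on replicates 1, 2 and 3, above the cutoff on each, with an adjusted p of 0.0754. These are from the brighter of its 2 probe sets, and by their median it was not called either. It was called under 4 alternative settings, for instance with limma adjusted p = 0.0313 without Myh1 among the cutoff genes. The vitamin D receptor Vdr (244, 255 and 156) lay below the cutoff on every array. Esr1 (59.3 ± 44.1) and the retinoid receptor Rxra (60.6 ± 57.3) had the lowest signals of the list.

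Among 17 other genes of calcium transport 6 were detected, and the median distance was -1.88 log2 units. S100g, Trpv6 and Pvalb of this list also stand among the markers of the distal convoluted and connecting tubule. Those with the highest signal were Pkd2, a calcium-permeable channel of the cilium (3691 ± 206), the mitochondrial exchanger Slc8b1 (2053 ± 105), the channel Trpv4 (1469 ± 98.6) and the Golgi pump Atp2c1 (1368 ± 57.9, SD, n = 3). Atp2c1 was not called by the median of its 3 probe sets (adjusted p = 1). Atp2a3, the SERCA3 pump, had signals of 26.0, 508 and 195 on replicates 1, 2 and 3, above the cutoff on replicate 2 alone, and was not detected. The lowest mean log2 signals were those of the exchanger Slc24a3 (109, 112 and 3.46 on replicates 1, 2 and 3) and of Pvalb. Slc24a3 owes its place to replicate 3, and its linear mean of 74.8 was above those of Calb2 (62.3) and Trpc6 (58.0), a pair named after their values were seen.

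Of 20 other genes of magnesium handling 13 were detected, at a median distance of 1.47. Egf and Bsnd of this list also stand among the thick ascending limb markers. Egf, a hormone that stimulates magnesium entry (45193 ± 905), and the sodium pump subunit Fxyd2 (42591 ± 3576), both altered in inherited loss of magnesium in humans, had the highest signals. The phosphatases Ptp4a2 (10633 ± 1174) and Ptp4a1 (8034 ± 1029, SD, n = 3), which bind the magnesium transporters of the Cnnm family, followed. Cnnm2 itself, a basolateral protein needed to retain magnesium, had signals of 712, 829 and 851 on replicates 1, 2 and 3 and was detected (1.03 above the cutoff, adjusted p = 0.00236). The transporter Slc41a3 (528, 711 and 407) lay above the cutoff on each array and missed the threshold (adjusted p = 0.0932). Cnnm1 (80.4 ± 41.0) and the potassium channel Kcna1 (6.88 ± 0.71) were lowest.

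Genes of calcium stores and mitochondrial uptake were detected for 10 of 19, at a median distance of 0.57. Tmbim6 of the endoplasmic reticulum (26379 ± 1994), the outer mitochondrial channel Vdac1 (17568 ± 1347), the uniporter subunit Smdt1 (11724 ± 745) and the calcium-binding chaperone Calr (10235 ± 1319, SD, n = 3) were highest. Sarcolipin, Sln (37.9 ± 31.9), a muscle inhibitor of the pump that Atp2a2 encodes, and the ryanodine receptor Ryr3 (12.9 ± 15.7) were lowest. Calmodulin and its effectors were detected for 11 of 17 genes, led by Calm2 (22808 ± 2010), the calcineurin subunits Ppp3ca (3971 ± 294) and Ppp3r1 (2685 ± 146), and the kinase Camk2d (3152 ± 86.7). By the median over probe sets Camk2d and Ppp3r1 were not called (adjusted p = 1 and 0.999), and the count of this list was 6. The kinases Camk4 (35.6 ± 9.15) and Camk2b (40.5 ± 25.1), best known from brain, had the lowest signals.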

How the data were processed

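Biotin-labelled cRNA of 3 mTAL samples was put on Affymetrix arrays, per the labels' protocols. The authors deposited a linear signal intensity for each probe set on each array. The summary method, its software and any background correction are not given in the sources used here. A mean taken without the 2% of values at either end was 1000.3 on each array, and the median was 256, 287 and 267 on replicates 1, 2 and 3. All values were positive, and log2 needed no pseudocount. The arrays were not scaled further.

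The platform annotation gave 1 gene to 20826 of 31099 probe sets, and only these were used. The RefSeq gene table of GRCr8 held the identifiers of 20758 and changed 0 symbols. For tests by gene, each gene was represented by its brightest probe set (by mean log2 signal). The cutoff on each array was the 95th percentile of 92 genes typical of other tissues. The log2 signal minus the cutoff was tested with limma 3.58.1 (lmFit and eBayes, one-sided) in R 4.3.3. The test takes the cutoff as known, and was tried on simulated data with normal spread and a fixed cutoff. Of 50 probe sets placed at each of 0.5, 1, 2 and 4 log2 units above it, 37, 44, 50 and 50 were called. Such data cannot check where the cutoff should lie. Precision is limited by the number of arrays.

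Members and lists were chosen with earlier results of these data known, including doubt about the annotation of Myh1, 1 of the cutoff genes. Of 337 list entries 310 were measured. The text names all member probe sets, the 4 detected genes with the highest and the 2 genes with the lowest mean log2 signal of each pathway list, and a few genes fixed by name. Alternatives were other normalizations, a pseudocount of 16, a filter on dim probe sets, other cutoffs, a trended prior, the median over probe sets and leaving out each replicate. No correlation was computed over 3 arrays, so no genes of like pattern are named.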

Additional observations from a re-analysis of the deposited data

How the results depend on the processing

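The calls depended on the cutoff far more than on the arrays or the normalization. With the cutoff at the 99th percentile, which depends on Myh1, 2 member probe sets (Casr and 1370426_a_at of Atp2a2) and 2 member genes were detected, and 21 genes of the pathway lists. By list these were 3 partners of Casr, 1 gene for hormone receptors and enzymes, 5 claudins and 0 other calcium transport genes. The rest were 5 magnesium genes, 5 store and mitochondrial genes and 2 calmodulin genes. At the highest signal of the control TrpnX, 14 member probe sets and 8 member genes were detected, and Calb1 was the member gene not called. At that cutoff 8 genes for hormone receptors and enzymes and 11 other calcium transport genes were detected. With the median over probe sets, 6 calmodulin genes and 4 member genes were detected. The share of all genes detected was 12.8% at the 99th percentile and 78.3% at TrpnX. Without 1 replicate at a time, 7 to 8 member probe sets and 4 member genes were detected. Quantile normalization, a common 75th percentile, a pseudocount of 16, the filter, the 90th percentile, the list without Myh1 and the trended prior gave 8 or 9 member probe sets and 4 member genes. At the 90th percentile and at TrpnX the cutoff differed between arrays by 0.79 and 0.64 log2 units, which gave all probe sets a more similar variance in limma, so p-values there are less specific to a gene. No paired analysis was possible because the arrays form 1 group.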
